A study of Rattus norvegicus with 6 samples.

Results

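The 34 genes described here encode the enzymes of the citric acid cycle, the complexes that bring pyruvate into it, and the enzymes that link it to the cytosol and to the reduced cofactors NADH and NADPH. They were taken from a list of gene symbols, and a probe set with a single matching symbol was found on the array for all 34. They stand for 34 of the 14506 named genes and 37 of the 29214 probe sets, since Cs, Dlat and Pdha1 each had a second probe set. Preparations enriched in beta cells were made from male Wistar rats, and their total RNA was read on 6 Affymetrix arrays. The day 20 group held 3 preparations of suckling animals at postnatal day 20, called immature in the labels, and the adult group 3 preparations of young adults of about 2 months (250 to 280 g), called fully mature. The labels name no genotype or drug for either group. Suckling animals also feed on milk, so diet and age cannot be told apart. All preparations were sorted by light scatter and autofluorescence, with no antibody, and are described as primary cultured. Per the labels the 3 preparations of an age are biological replicates, and the number of animals behind each is not stated.

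In the citric acid cycle acetyl-CoA and oxaloacetate form citrate, which is oxidised step by step back to oxaloacetate, with the energy kept as NADH and reduced flavin for the respiratory chain. In beta cells glucose-derived pyruvate enters mitochondria both by oxidation to acetyl-CoA and by carboxylation to oxaloacetate. Carbon that leaves the cycle as malate, citrate or isocitrate feeds cytosolic malic enzyme and isocitrate dehydrogenase, which make NADPH. These cycles of pyruvate, together with the shuttles that carry NADH into mitochondria, are known as couplings between glucose and insulin secretion.

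Values are log2 signals per probe set after RMA, the authors' normalization, on which a difference of 1 is a 2-fold change in signal. Array medians lay between 6.35 and 6.39 and first quartiles between 4.91 and 4.94. The insulin genes Ins1 and Ins2, which define beta cells, had mean log2 signals of 14.31 and 14.30 in adult and of 14.00 and 14.10 at day 20. Digestive enzymes of acinar cells were also bright, such as Ctrb1 (14.60 in adult and 14.57 at day 20), so the preparations held exocrine RNA at both ages. In such a bulk preparation, fewer cells of a type and less RNA per cell cannot be told apart.

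The mitochondrial cycle enzymes Mdh2, Sdhb, Suclg1 and Sucla2 were lower in adult than in day 20 preparations, while the malic enzymes Me1 and Me2 and the cytosolic isocitrate dehydrogenase Idh1 were higher. Of these genes, Sdhb, Sucla2, Idh1, Me1 and Me2 did not pass the threshold when certain single arrays were left out. Of the 34 members, 7 were lower in adult (Mdh2, Got1, Idh2, Pdhb, Sdhb, Suclg1 and Sucla2) and 4 were higher (Glud1, Idh1, Me1 and Me2) at an adjusted p under 0.05 by limma. Over all named genes 10.9% were called lower and 11.8% higher. Against all named genes the members thus stood above the background on the lower side and at about it on the higher side. With the dimmest 33.3% of genes removed, all 34 members stayed, again with 7 lower and 4 higher. Of the 9670 genes left, 1551 were lower and 1847 higher. Against these brighter genes the members' lower share was nearer to the background, and their higher share was below it. The changes were small. The largest was 1.91-fold (Me2), and 0 members reached 2-fold, against 2.87% of all genes that passed the threshold with at least that size. The difference was below 0 for 24 of 34 members, against 47.7% of all genes, and its median was -0.15 over the members and 0.01 over all genes. Signals of the 2 ages did not overlap for 22 members, 15 lower and 7 higher in adult, against 39.6% of all genes, of which 18.7% were lower and 20.9% higher. With a mean of endocrine genes as a covariate, described below, 3 of the 11 called members passed, namely Mdh2, Got1 and Idh1.

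**Figure D1:**
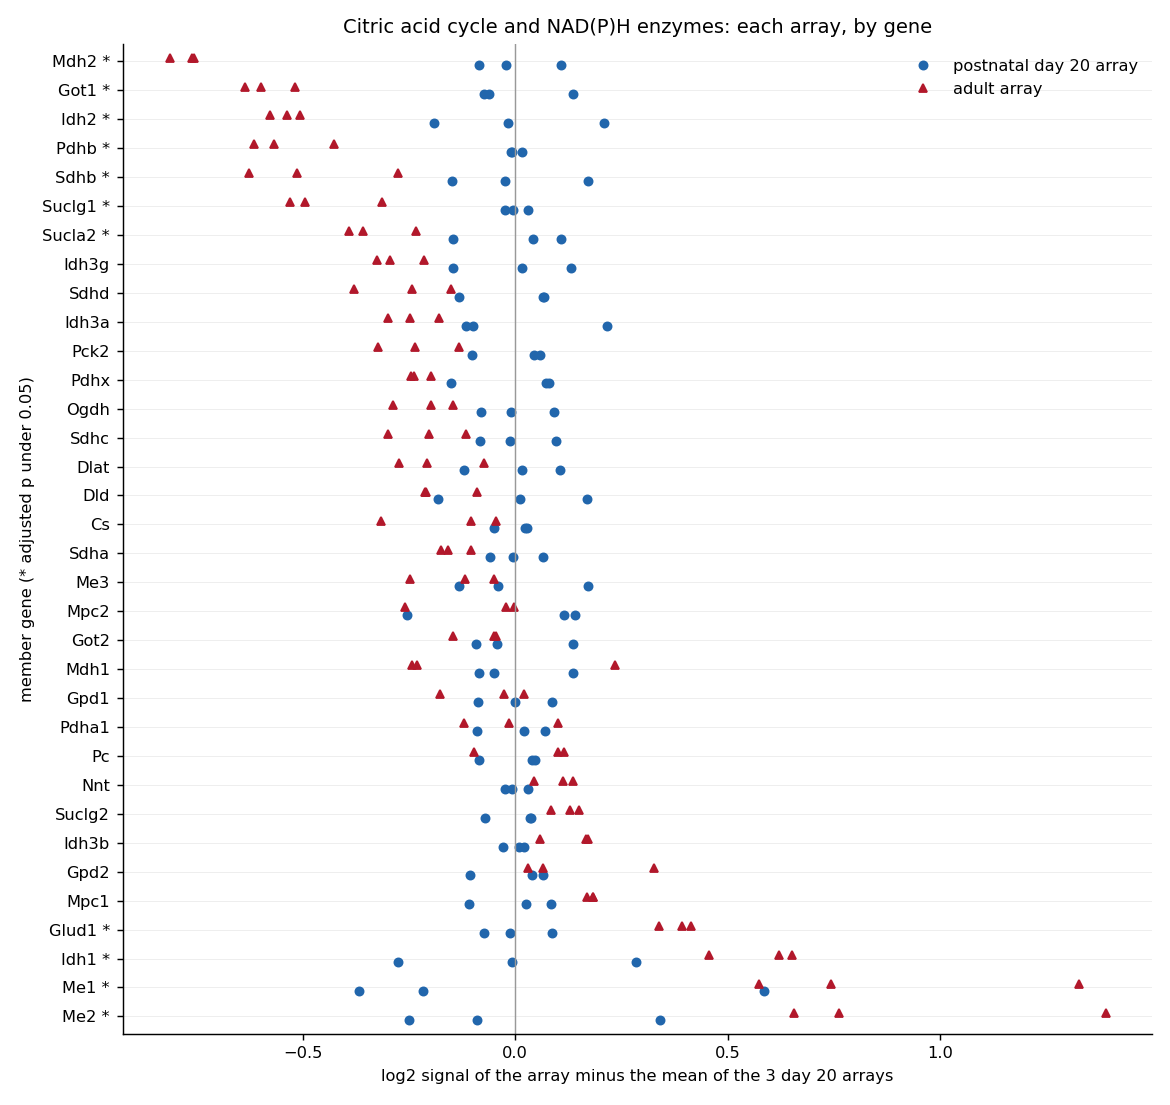
Each row is 1 member gene and each point 1 array (circles, 3 day 20 arrays; triangles, 3 adult arrays), plotted as its log2 signal minus the mean of the gene's 3 day 20 arrays. Adult points lie left of the day 20 points from Mdh2 down to Sucla2, the 7 genes called lower, and right of them for Glud1, Idh1 and Me2, while 1 day 20 array of Me1 reaches the adult range.

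The promoters of 4 called members are shown because these genes moved with age in both directions and hold letters bound by known activators of mitochondrial genes. The sequences are the 250 bases before the annotated start, from RefSeq on build GRCr8, 5′ to 3′ on the gene's strand. Capitals in Mdh2 (chr12:26543842-26544091, minus strand), Sdhb (chr5:158547684-158547933, plus strand) and Glud1 (chr16:9646319-9646568, plus strand) mark the letters CCGGAAG of the factor GABPA or their reverse complement CTTCCGG. Capitals in Sucla2 (chr15:55161644-55161893, plus strand) mark a match to the consensus motif of the factor NRF1, on the reverse strand.
Mdh2: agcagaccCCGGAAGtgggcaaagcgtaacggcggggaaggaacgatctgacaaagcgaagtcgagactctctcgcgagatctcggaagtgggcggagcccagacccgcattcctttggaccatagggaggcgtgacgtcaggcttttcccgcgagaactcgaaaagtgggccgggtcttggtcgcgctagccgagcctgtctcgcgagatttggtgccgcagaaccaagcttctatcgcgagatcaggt
Sdhb: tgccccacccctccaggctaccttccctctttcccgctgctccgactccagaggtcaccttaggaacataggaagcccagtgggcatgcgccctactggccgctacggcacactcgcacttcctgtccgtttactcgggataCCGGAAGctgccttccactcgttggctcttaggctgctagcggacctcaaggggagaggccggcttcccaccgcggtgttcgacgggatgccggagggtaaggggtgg
Glud1: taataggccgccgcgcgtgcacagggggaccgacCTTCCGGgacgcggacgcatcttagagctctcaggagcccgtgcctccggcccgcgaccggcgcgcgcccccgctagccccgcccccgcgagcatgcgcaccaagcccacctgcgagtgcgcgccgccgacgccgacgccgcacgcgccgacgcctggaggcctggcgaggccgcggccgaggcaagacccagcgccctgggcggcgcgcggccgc
Sucla2: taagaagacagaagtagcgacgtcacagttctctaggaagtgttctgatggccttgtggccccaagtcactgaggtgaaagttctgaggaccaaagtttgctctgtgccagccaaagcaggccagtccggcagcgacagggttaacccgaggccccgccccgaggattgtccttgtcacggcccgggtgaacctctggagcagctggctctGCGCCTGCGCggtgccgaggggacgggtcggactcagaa
Promoter windows of 300 bases (250 before and 50 after the start) were found for 31 of the 34 members. On either strand CCGGAAG was in 8 of the 31 (25.8%) and in 8.75% of all 33469 windows. It was held by the lower genes Mdh2 and Sdhb, the higher gene Glud1, and by Idh3b, Idh3g, Mpc2, Nnt and Sdhd, which did not pass, so the letters were present on both sides of the age difference. The NRF1 motif was in 3 of 31 (9.68%, against 4.25% of all windows), and AAGATGGC, the letters of YY1, in 4 of 31 (12.9% against 3.17%). TCAAGGTCA, the letters of the estrogen-related receptors, was in 1 (Sdhd, 3.23% against 0.433%). A match of letters is a description and does not show that a factor binds. The other 8 motifs searched were the E-box CACGTG (9.68% of member windows against 6.42%), a pair of these E-boxes spaced as in the carbohydrate response element (0% against 0.00299%), TCACNCCAC of the sterol response element (0% against 1.12%), TGANNNNGC, the core of the antioxidant response element (58.1% against 40.5%), the GC box GGGCGGG (45.2% against 22.7%), the CCAAT box (51.6% against 37.5%), TGACGTCA, the cyclic AMP response element (9.68% against 1.83%) and AAGGTCA (3.23% against 4.61%), the last lying within the estrogen-related receptor motif.

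The 7 genes of pyruvate entry showed 1 change, in the beta subunit of pyruvate dehydrogenase, against 22.7% of all genes called in either direction. Pdhb (probe set 10779485), which with Pdha1 forms the decarboxylating enzyme of the complex, had log2 signals of 8.41, 8.60 and 8.46 in adult and of 9.02, 9.01 and 9.04 at day 20. All adult arrays lay below all day 20 arrays, and the day 20 arrays hardly differed. Pdhb was 1.45-fold lower in adult (8.49 ± 0.10 against 9.02 ± 0.01, SD, n = 3, adjusted p = 0.0031), a call kept whichever of the 6 arrays was dropped. Its partner Pdha1 (probe set 10933589) had the same level at both ages within the spread between arrays (9.42 ± 0.11 against 9.43 ± 0.08, n = 3), with a 95% interval of the log2 difference of -0.23 to 0.20. A second Pdha1 probe set gave 9.35 against 9.34. The acetyltransferase Dlat and the E3-binding protein Pdhx had differences of -0.19 and -0.23 (adjusted p = 0.22 and 0.12). The second probe set of Dlat differed by -0.22. Over the 5 genes of the pyruvate dehydrogenase complex (Pdha1, Pdhb, Dlat, Pdhx and Dld), all 5 differences were below 0 (47.7% of all genes) and 1 passed. That of Pdha1 was only -0.01, and 0.0020 on its second probe set.

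The carrier and the carboxylase of pyruvate did not pass. Pc, pyruvate carboxylase, which makes oxaloacetate, had 9.32 ± 0.12 in adult and 9.28 ± 0.07 at day 20 (n = 3), with a 95% interval of -0.17 to 0.26. Mpc1 and Mpc2 form the mitochondrial pyruvate carrier together. Mpc1 was between 8.01 and 8.03 on the adult and between 7.73 and 7.92 on the day 20 arrays (log2 difference 0.18, adjusted p = 0.19), and Mpc2 differed by -0.09 (adjusted p = 0.67), with overlapping ages.

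Of the 14 members of the cycle itself, 4 were lower and 0 higher in adult by limma, against 10.9% and 11.8% of all genes. At an unadjusted p under 0.05 the counts were 7 and 0, against 16.1% and 18.1% of all genes. Differences were below 0 for 12 of the 14, with a median of -0.23. Mdh2 (probe set 10761152), mitochondrial malate dehydrogenase, which closes the cycle at oxaloacetate, showed the largest fall. Its log2 signals were 11.08, 11.14 and 11.14 in adult and 12.004, 11.81 and 11.87 at day 20, so the ages were well apart. It was 1.71-fold lower in adult (11.12 ± 0.03 against 11.90 ± 0.10, SD, n = 3, adjusted p = 6.0e-04) and passed with any 1 array left out.

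Succinyl-CoA ligase makes GTP or ATP in the cycle depending on its beta subunit. Lower in adult were 2 of its 3 subunits, against 10.9% of all genes. Suclg1, the alpha subunit shared by both forms, had 9.06, 9.28 and 9.10 in adult and 9.57, 9.62 and 9.59 at day 20, with no overlap, and was 1.36-fold lower in adult (adjusted p = 0.0087). Sucla2, the ATP-forming beta subunit, had 9.34, 9.22 and 9.18 in adult and 9.43, 9.61 and 9.68 at day 20. It was 1.26-fold lower (adjusted p = 0.042), the called member nearest to the threshold, and did not pass when adult replicate 2, adult replicate 3, day 20 replicate 2 or day 20 replicate 3 was dropped (highest adjusted p 0.13). Suclg2, the GTP-forming beta subunit, lay the other way without passing, at 10.88, 10.92 and 10.94 in adult and 10.72, 10.83 and 10.83 at day 20 (adjusted p = 0.35).

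Succinate dehydrogenase is the enzyme of the cycle that is also complex II of the respiratory chain. All 4 subunits had lower signals on every adult array than on any day 20 array, as did 18.7% of all genes. The ages were only 0.03 apart for Sdhc and 0.02 for Sdhd on the log2 scale. Sdhb, the iron-sulfur subunit, was the only 1 of the 4 that passed. Its log2 signals were 8.86, 9.21 and 8.97 in adult and 9.66, 9.46 and 9.34 at day 20, and it was 1.39-fold lower in adult (adjusted p = 0.023). It did not pass when adult replicate 1, adult replicate 3, day 20 replicate 1 or day 20 replicate 2 was dropped (highest adjusted p 0.082). The membrane anchors Sdhc and Sdhd differed by -0.21 and -0.26 (adjusted p = 0.15 and 0.10) and the flavoprotein Sdha by -0.15 (adjusted p = 0.26).

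The other members of the cycle did not pass. NAD-dependent isocitrate dehydrogenase has a catalytic alpha and regulatory beta and gamma subunits. Idh3a and Idh3g were lower on all adult arrays, with differences of -0.24 and -0.28 (adjusted p = 0.15 and 0.073), and Idh3b was higher on all adult arrays, by 0.13 (adjusted p = 0.31). Idh3g was the uncalled member nearest to the threshold. Ogdh, of the 2-oxoglutarate dehydrogenase complex, differed by -0.21 (adjusted p = 0.13) without overlap, Dld, the E3 component of that complex and of pyruvate dehydrogenase, by -0.17 (0.31), and Cs, citrate synthase, by -0.16 (0.31). The second Cs probe set gave -0.01.

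**Figure D2:**
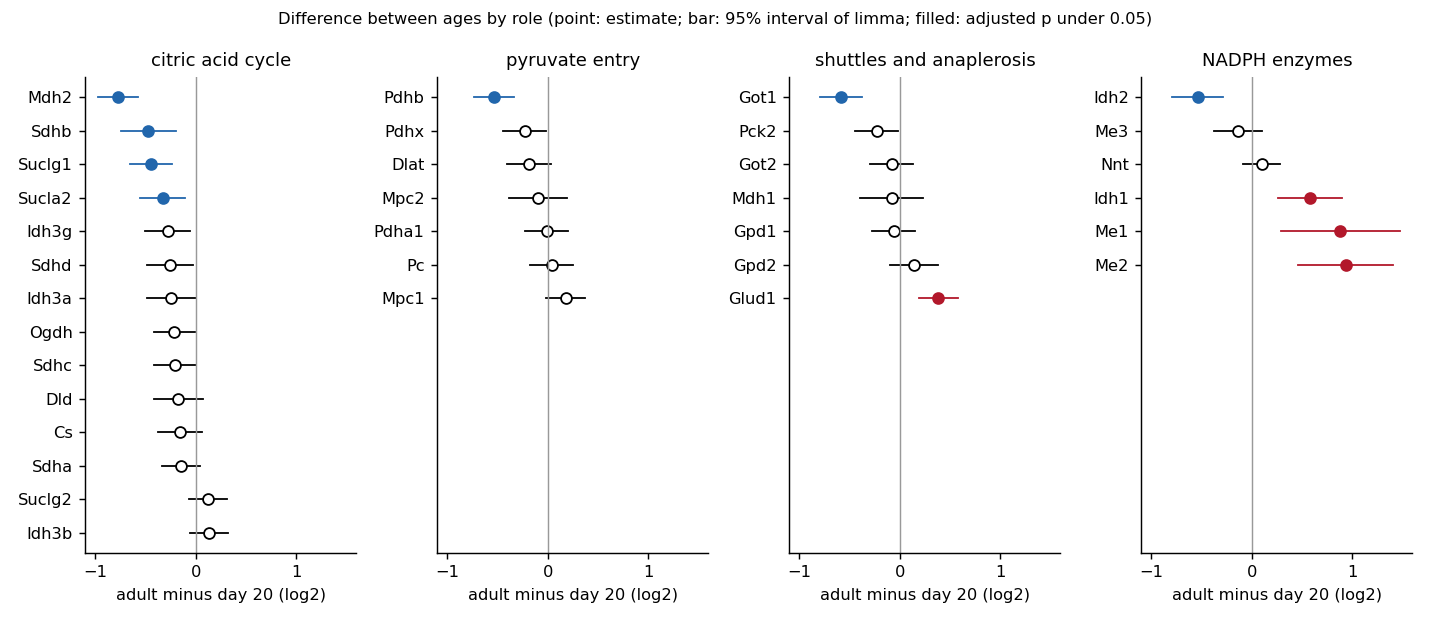
Log2 difference between adult and day 20 for the 34 members in 4 panels by role, with the limma estimate as a point and its 95% interval as a bar. Filled points passed an adjusted p of 0.05. Blue points lie below 0 (4 in the cycle and 1 in each other panel) and red points above 0 (Glud1, Idh1, Me1 and Me2).

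Of the 7 genes of shuttles and anaplerosis, 1 was lower and 1 higher in adult, against 10.9% and 11.8% of all genes. The malate-aspartate shuttle, which moves the electrons of cytosolic NADH into mitochondria, needs malate dehydrogenase and aspartate aminotransferase in both compartments. Got1 (probe set 10715364), the cytosolic aminotransferase, had 9.16, 9.04 and 9.08 in adult and 9.62, 9.61 and 9.81 at day 20. It was 1.50-fold lower in adult (9.10 ± 0.06 against 9.68 ± 0.12, SD, n = 3, adjusted p = 0.0029), a call kept with any 1 array left out. The lower genes of this shuttle were therefore a cytosolic aminotransferase and a mitochondrial dehydrogenase. Their counterparts Got2 and Mdh1 differed by -0.08 each (adjusted p = 0.61 and 0.75). Mdh1 was 10.82 on adult replicate 1 and 10.34 and 10.35 on the other adult arrays, against 10.50 to 10.72 at day 20, so 1 adult array lay above and the others below the day 20 range.

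Glud1 (probe set 10786969), glutamate dehydrogenase, which turns glutamate into 2-oxoglutarate and is a known site of amino acid action on insulin secretion, rose. Its log2 signals were 12.23, 12.25 and 12.17 in adult and 11.92, 11.82 and 11.76 at day 20, with no overlap. The adult mean of 12.22 ± 0.04 was 1.30-fold above the day 20 mean of 11.84 ± 0.08 (SD, n = 3, adjusted p = 0.013). It passed with any 1 array left out (adjusted p up to 0.047). Gpd1 and Gpd2, the cytosolic and mitochondrial enzymes of the glycerol phosphate shuttle, differed by -0.06 and 0.14 (adjusted p = 0.72 and 0.41), with overlapping ages. Pck2, mitochondrial phosphoenolpyruvate carboxykinase, differed by -0.23 (adjusted p = 0.11), with all adult arrays (9.80 to 9.99) below all day 20 arrays (10.02 to 10.18).

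Of the 6 malic, NADP-dependent isocitrate and transhydrogenase genes, 1 was lower and 3 were higher in adult, against 10.9% and 11.8% of all genes. Idh2 (probe set 10723020), which makes NADPH in mitochondria, had 11.07, 11.14 and 11.11 in adult and 11.85, 11.63 and 11.46 at day 20. It was 1.45-fold lower in adult (11.11 ± 0.04 against 11.65 ± 0.20, SD, n = 3, adjusted p = 0.0090) and passed with any 1 array left out. Idh1 (probe set 10928563), the cytosolic and peroxisomal enzyme of the same reaction, had 9.53, 9.73 and 9.70 in adult and 8.80, 9.36 and 9.07 at day 20. The adult mean of 9.65 ± 0.10 was 1.49-fold above the day 20 mean of 9.08 ± 0.28 (n = 3, adjusted p = 0.018), a call that ended when adult replicate 2, adult replicate 3 or day 20 replicate 1 was dropped (highest adjusted p 0.058). The mitochondrial and the cytosolic isozyme thus changed in opposite directions.

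Me1 and Me2 showed the largest rises and the largest spread between arrays. Me1 (probe set 10919103), cytosolic NADP malic enzyme, had 8.43, 7.68 and 7.85 in adult and 6.74, 6.89 and 7.69 at day 20. It was the 1 called member whose ages overlapped, since day 20 replicate 3 lay at the level of adult replicate 2. The adult mean of 7.98 ± 0.39 was 1.84-fold above the day 20 mean of 7.10 ± 0.51 (SD, n = 3, adjusted p = 0.041). The gene did not pass when adult replicate 1, adult replicate 3, day 20 replicate 1 or day 20 replicate 2 was dropped (highest adjusted p 0.15). With the replicate number as a block its adjusted p was 0.059, and that of Sucla2 0.10.

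Me2 (probe set 10805186), the mitochondrial malic enzyme that prefers NAD, had 7.20, 6.47 and 6.58 in adult and 5.72, 5.56 and 6.16 at day 20. The ages did not overlap, and the day 20 signals lay below the array median but above the first quartile. The adult mean of 6.75 ± 0.40 was 1.91-fold above the day 20 mean of 5.81 ± 0.31 (SD, n = 3, adjusted p = 0.013), a call that ended when day 20 replicate 1 or day 20 replicate 2 was dropped (highest adjusted p 0.056). Me3, the mitochondrial NADP malic enzyme, had 6.77 to 6.96 in adult and 6.88 to 7.19 at day 20 (adjusted p = 0.42). Nnt, the transhydrogenase that makes mitochondrial NADPH from NADH, was between 10.21 and 10.30 in adult and between 10.14 and 10.20 at day 20 (log2 difference 0.10, adjusted p = 0.46).

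**Figure D3:**
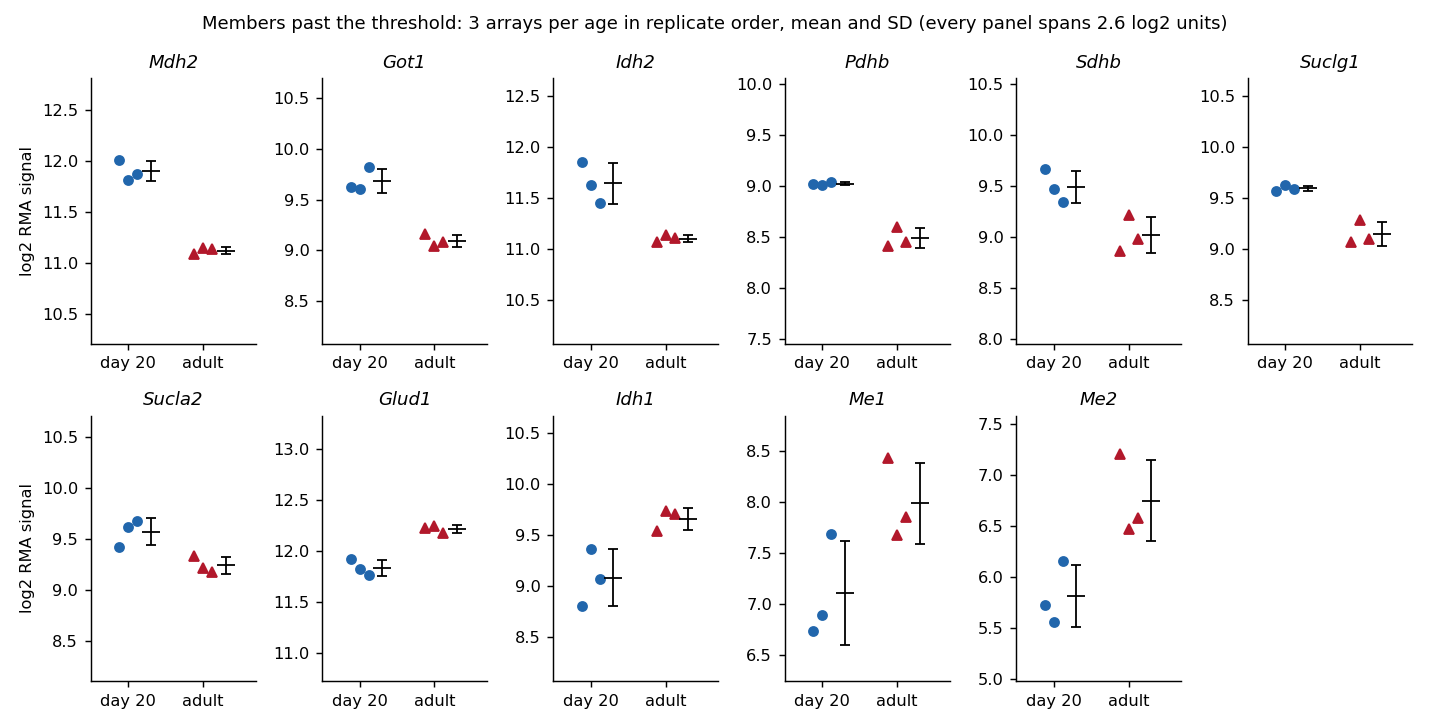
Log2 RMA signal of the 11 members past the threshold on each array (circles, day 20; triangles, adult; replicates 1 to 3 from left to right), with the mean and SD of the 3 arrays of an age beside them. Every panel spans the same range, so the small spread of Mdh2 or Glud1 can be set against the wide spread of Me1 and Me2.

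To ask whether partners changed unequally, the gap between their log2 signals was taken within each array for 11 pairs of isozymes or subunits and compared between ages with an exact two-sided permutation test. With 3 arrays against 3 this test cannot give a p below 0.10, and 0.16 was the smallest after Benjamini-Hochberg adjustment over the 11 pairs, so no pair could be called. The gaps of 7 pairs did not overlap between the ages, against 43.4% of all pairs of named genes. For Idh2 and Idh1, Suclg2 and Sucla2, and Idh3b and Idh3a this followed from the single genes. There the signals of each partner did not overlap between the ages, in opposite directions. Some pairs also shared Idh3a or Me1. Idh2 minus Idh1 was 1.45 ± 0.07 in adult and 2.57 ± 0.42 at day 20 (SD, n = 3), a difference of -1.12 (exact permutation p = 0.10). Mdh2 minus Mdh1 differed by -0.70, from between 1.29 and 1.34 on the day 20 arrays to between 0.27 and 0.80 on the adult arrays. Both gaps were smaller on every adult array than on any day 20 array. Got2 minus Got1 was between 0.11 and 0.48 at day 20 and between 0.66 and 0.87 in adult, and Suclg2 minus Sucla2 between 1.15 and 1.30 and between 1.54 and 1.76. Idh3b minus Idh3a differed by 0.37, Mpc2 minus Mpc1 by -0.27 and Me3 minus Me1 by -1.02, all without overlap. By contrast the gap of Me2 to Me1 was -1.23 ± 0.03 in adult and -1.29 ± 0.26 at day 20, so the distance between both malic enzymes differed little between the ages. Idh3g minus Idh3a, Pc minus Pdha1 and Gpd2 minus Gpd1 overlapped as well (differences of -0.04, 0.05 and 0.20).

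**Figure D4:**
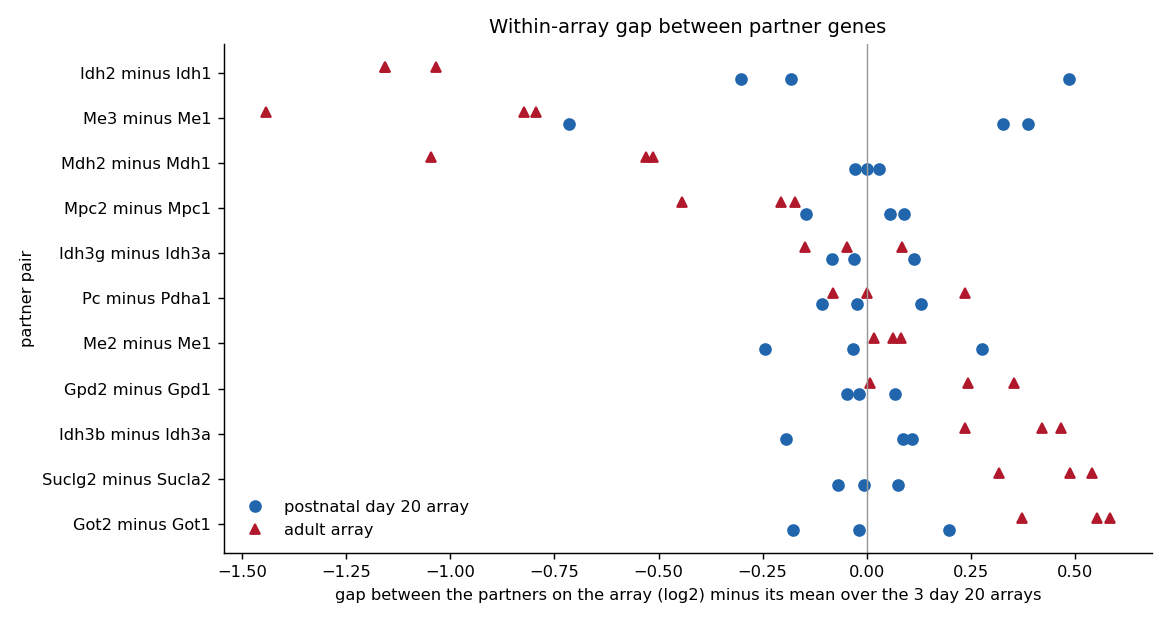
Gap between the log2 signals of 2 partner genes on each array, minus the mean gap of the 3 day 20 arrays (circles, day 20; triangles, adult), for 11 pairs. The adult points of Idh2 minus Idh1, Me3 minus Me1, Mdh2 minus Mdh1 and Mpc2 minus Mpc1 lie left of all day 20 points, and those of Idh3b minus Idh3a, Suclg2 minus Sucla2 and Got2 minus Got1 right of them.

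Other genes of the same pathways, outside the 34, were listed as well, and 37 of 47 were measured. Of these 8 were lower and 3 higher in adult, against 10.9% and 11.8% of all genes. Differences were below 0 for 18 of 37, with a median of 0.01. Pdp2, a phosphatase that activates pyruvate dehydrogenase, was 2.03-fold lower in adult (7.83 ± 0.09 against 8.85 ± 0.12, SD, n = 3, adjusted p = 2.9e-04). Mthfd1, a folate enzyme of the cytosol, was 2.07-fold lower, Ldha 2.47-fold, and Gpt2, the mitochondrial alanine aminotransferase, 1.68-fold. The mitochondrial carriers of glutamate (Slc25a22), dicarboxylates (Slc25a10) and 2-oxoglutarate (Slc25a11) did not move together. Slc25a22 and Slc25a10 fell by 0.62 and 0.44 on the log2 scale, and Slc25a11, which works in the malate-aspartate shuttle, was 1.31-fold higher in adult. Aldh1l2 and Ldhb were the other lower genes. Nadk2, the mitochondrial NAD kinase, which makes NADP, was 1.51-fold higher (8.36 ± 0.03 against 7.77 ± 0.17, n = 3, adjusted p = 0.0043), and Aco1, the cytosolic aconitase, 1.22-fold (adjusted p = 0.049). Calls of Aco1 were lost when any 1 array was left out, those of Ldhb with any but adult replicate 1, and that of Slc25a11 without adult replicate 2. The kinases that switch off pyruvate dehydrogenase, Pdk1, Pdk2, Pdk3 and Pdk4, differed by -0.01, 0.03, -0.0040 and 0.19, and ATP citrate lyase, Acly, by 0.24, none past the threshold (adjusted p = 0.26 to 0.99).

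Of 15 measured transcription factors and coactivators of mitochondrial genes, 2 were higher and 1 lower in adult. Of all genes 11.8% were higher and 10.9% lower, so these counts were near the background. Esrrg, an estrogen-related receptor known for its part in the oxidative metabolism of mature beta cells, was 1.39-fold higher (8.41 ± 0.08 against 7.94 ± 0.04, SD, n = 3, adjusted p = 0.0053), and Ppara, a regulator of fatty acid oxidation, 1.64-fold (8.22 ± 0.06 against 7.50 ± 0.14, n = 3, adjusted p = 0.0015). Pprc1, a coactivator of the PGC-1 family, was 1.49-fold lower (7.68 ± 0.04 against 8.25 ± 0.14, n = 3, adjusted p = 0.0036). Its relative Ppargc1a differed by -0.14 (adjusted p = 0.54) and Esrra by 0.09 (adjusted p = 0.70). Gabpa, Nrf1 and Yy1, whose letters were searched in the promoters, differed by -0.03, -0.03 and 0.03.

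Markers of several other cell types differed with age over the same arrays. The counts lower or higher given for each list are of genes called, against 10.9% lower and 11.8% higher of all genes. The mean log2 signal of 9 dividing cell markers was 6.40 to 6.46 in adult and 8.07 to 8.53 at day 20, with 8 of 9 lower in adult. Endothelial markers had a mean of 5.64 to 5.69 in adult against 6.82 to 7.56 (8 of 8 lower), those of stellate cells and fibroblasts 6.25 to 6.39 against 6.81 to 7.06 (4 of 10 lower), and those of alpha, delta, PP and epsilon cells 8.48 to 8.78 against 9.50 to 9.82 (5 of 7 lower). The median difference of the stellate and fibroblast list was -0.25. Leukocyte markers had 5.45 to 5.46 against 5.87 to 6.02 (2 of 8 lower). Their differences were split, 4 above and 4 below 0 with a median of -0.08, and the 2 called were Cd48 (-2.85) and Cd68 (-0.88). Duct markers had 8.66 to 8.67 against 8.66 to 9.16 (2 of 6 lower and 1 higher), with 3 differences above and 3 below 0. The part of these lists in the members' differences was not tested. Acinar markers had a mean of 13.48 to 13.59 in adult and 13.42 to 13.66 at day 20, with overlapping ages. Of these 12 genes 9 lay within 1 log2 unit of the highest signal in the table on every array, so this mean had little room to move. The acinar transcription factor Ptf1a, which is not near that top, was the 1 of 12 that passed, with a lower signal in adult (log2 difference -0.49, adjusted p = 0.029). Its call was lost when any 1 of the day 20 arrays was dropped (adjusted p up to 0.097). Bhlha15 and Rbpjl, also away from the top, differed by -0.21 and -0.03 (adjusted p = 0.23 and 0.91), with overlapping ages. With the acinar mean as a covariate all 11 calls of members held. Since that mean had little room to move, the part of acinar RNA in the members' differences was not tested by it.

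Beta cell markers were higher in adult, with a mean of 11.64 to 12.13 against 10.31 to 10.92. Of 12 listed, 8 were measured and 6 of these called higher, against 11.8% of all genes. Ins1 and Ins2 did not pass, and their signals of 13.81 to 14.35 lay near the highest on the arrays, 14.71. The pan-endocrine mean, over 12 secretory pathway genes such as Chga and Cpe and a set chosen after results of these data were known, was 10.55 to 11.24 in adult and 9.39 to 10.40 at day 20. Of its 12 genes 9 were called higher in adult, while the other 3 did not pass and 1 difference was below 0. The order of the arrays by Me2 was their order by this mean. For Me1 it differed in that day 20 replicate 2 lay above day 20 replicate 1 and day 20 replicate 3 level with adult replicate 2, and for Mdh2 and Idh1 the orders were unlike. At both ages the array with the highest mean, adult replicate 1 and day 20 replicate 3, also had the highest Me1 and Me2. With the mean as a covariate 3 of the 11 members passed, Mdh2 (log2 difference -0.80, adjusted p = 0.020), Got1 (-0.76, 0.019) and Idh1 (0.86, 0.039). Me1 then had a difference of 0.08 (adjusted p = 0.91) and Me2 of 0.24 (0.53). Glud1, at 0.41, and Sucla2, at -0.42, were no smaller than without it but did not pass (adjusted p = 0.15 and 0.19). Pdhb, Idh2, Suclg1 and Sdhb had -0.48, -0.42, -0.34 and -0.27 (adjusted p = 0.10 to 0.49). The fit with the covariate called 773 genes in all, against 3294 without it, and the mean itself differed with age. Without adult replicate 1 and day 20 replicate 2, the arrays with the highest adult and the lowest day 20 mean, 4 of the 11 passed (Mdh2, Got1, Pdhb and Idh1), with 3 lower and 1 higher in adult.

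**Figure D5:**
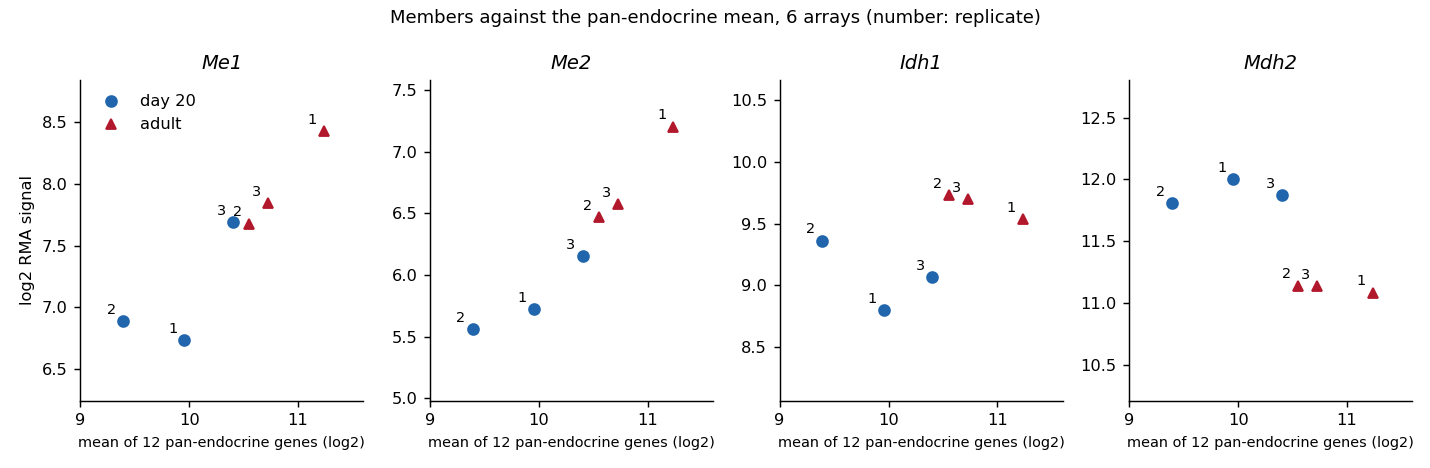
Log2 RMA signal of Me1, Me2, Idh1 and Mdh2 against the mean log2 signal of 12 pan-endocrine genes on the 6 arrays (circles, day 20; triangles, adult; numbers, replicates). Me2 is higher on each array with a higher mean, whereas the 3 adult arrays of Mdh2 lie between 11.08 and 11.14 and its day 20 arrays between 11.81 and 12.004.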

How the data were processed

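The 6 arrays were compared, 3 per age, grouped by sample title. The deposited unit is a log2 signal for each probe set, which the authors made with RMA (background correction, quantile normalization and probe summary), per the submitters' processing notes. Software version, annotation and genome build: not given in the sources used here. The log2 scale was inferred from the range, 1.73 to 14.7. Of 29214 probe sets, 15310 had 1 gene symbol in the platform annotation, updated by Entrez identifier, 323 had several, and 13581 were unlisted, and the last 2 kinds stay unnamed here. The brightest probe set over all 6 arrays stood for each of 14506 genes. No filter on low signal was applied, and no detection calls were given.

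Adult was compared with day 20 by two-sided moderated tests (limma 3.58.1, functions lmFit and eBayes, R 4.3.3). P-values were adjusted by Benjamini-Hochberg over all 14506 genes, and an adjusted p under 0.05 was called. Arrays were simulated with the spread of these 14506 genes and with changes in far fewer genes than the 3294 called here. On them the calls recovered 23.9% of changes of 0.5 on the log2 scale, 82.1% of changes of 1 and 97.0% of changes of 2. With few changed genes the adjustment is stricter, so these shares need not hold for the real arrays. Members' differences were mostly at or below the smallest of these sizes. Other steps ran in Python 3.11.15 (pandas 2.3.3, numpy 2.4.6; figures with matplotlib 3.10.9). With arrays, their number limits the precision. Members and lists were chosen with earlier results of these data known. Every member is accounted for, those past the threshold with each array's value. Of the other pathway genes and regulators, those past the threshold and a fixed few are named. Alternatives were a second quantile normalization, median centring, removal of low signal genes (the dimmest 33.3%), eBayes with trend and robust, mean of probe sets, all probe sets, array weights, the replicate number as a block, pan-endocrine or acinar mean as a covariate, and each array left out. Leaving out 2 arrays together was added after seeing the data.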

Additional observations from a re-analysis of the deposited data

How the results depend on the processing

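With 3 arrays per age, calls near the threshold turned on single arrays. Of the 11 calls of members, 6 held with every array left out in turn, and the counts ranged from 5 to 7 lower and from 1 to 4 higher. The lowest count of higher members, 1, came without day 20 replicate 1, and 2 passed without adult replicate 3 or day 20 replicate 2. All 11 held under the second quantile normalization, median centring, the low signal filter, both probe set choices, array weights and the acinar covariate (a mean mostly of genes near the top of the scale), and 10 with eBayes with trend and robust, where Me1 was lost. Idh3g was gained under that setting, the second quantile normalization, and without day 20 replicate 1. The second quantile normalization moved the members' median from -0.15 to -0.21 and that of all genes from 0.01 to 0.01. Depth plays no part in array signals, and no detection calls were given, so none of the low signals is shown to be above background.

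With the pan-endocrine covariate 2 members were lower and 1 higher, 5 and 1 of the other pathway genes, 0 and 1 of the regulators by limma (3 and 2 at an unadjusted p under 0.05, against 10.6% and 9.35% of all genes), and 466 and 307 of all genes. Without adult replicate 1 and day 20 replicate 2 together, 3 members were lower and 1 higher, and 924 and 937 of all genes. With 1 array left out, 1065 to 1591 of all genes were higher, 1065 without day 20 replicate 1 and 1083 without day 20 replicate 2, and 1076 to 1334 lower. Of the other pathway genes 1 to 4 were then higher (1 without adult replicate 2) and 7 to 8 lower. Array weights gave 6 and the acinar covariate 5 higher genes of that list. Regulators called lower numbered 2 with the second quantile normalization, array weights, the acinar covariate and without day 20 replicate 1, so 1 to 2 with 1 array left out.

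The replicate number as a block kept 9 of the 11 calls, with 2609 of all genes called. The numbers pair arrays only by name. Deviations of same-numbered arrays correlated at -0.19, 0.19 and -0.21, so they were not taken as pairs.

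Among the members and the named pathway genes and regulators, the sign turned for 10, which passed in none of these settings. With the pan-endocrine covariate the log2 differences were 0.030 for Pdha1, -0.12 for Pc, 0.028 for Mpc2, -0.091 for Gpd2, 0.013 for Me3, -0.076 for Acly and 0.15 for Pdk1. With the pair of arrays left out they were 0.053 for Pdha1, -0.041 for Pc, 0.045 for Mpc2, -0.0057 for Gpd2, 0.11 for Pdk1 and -0.0034 for Pdk2. Array weights gave 0.027 for Pdha1 and 0.037 for Pdk1, the second quantile normalization -0.011 for Pc and -0.038 for Pdk2, and the acinar covariate 0.027 for Pdk3. With 1 array left out the differences ranged over -0.24 to 0.0016 for Mdh1, -0.068 to 0.043 for Pdha1, -0.0030 to 0.11 for Pc, -0.062 to 0.078 for Pdk1, -0.054 to 0.10 for Pdk2 and -0.18 to 0.12 for Pdk3. The causes were not tested.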
